A study of Mus musculus with 2 samples.

Results

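Fatty acid-binding proteins are small cytoplasmic proteins that hold long-chain fatty acids and related lipids in a water-filled barrel and carry them between membranes, enzymes and the nucleus. The genes followed here are 4 members of the family, Fabp3, Fabp4, Fabp5 and Fabp7, found by their symbols among the 32285 genes of the count tables. Fabp7, also called brain lipid-binding protein or BLBP, is a marker of radial glia, the stem-like cells of the developing brain, and of immature glia. Fabp5 is carried by many cell types, including glia and activated immune cells, Fabp3 is best known from heart, muscle and neurons, and Fabp4 from adipocytes, macrophages and the endothelium of some tissues.

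The RNA came from optic nerves of Nf1-OPG mice, a model of optic pathway glioma. These C57BL/6 mice carry 1 floxed and 1 mutant Nf1 allele together with GFAP-Cre, so the floxed allele is lost in cells of the GFAP-expressing lineage while every other cell keeps it. Single-cell libraries from 2 pools, each made of the nerves of 10 animals aged 12 weeks, were sequenced. They bear the library names C-ON and FMC_new and the same genotype label. The title of C-ON also says control, which the labels do not explain, and both were treated as samples of 1 group. No library of a nerve without tumor was used here, so the values describe levels among cell types within these pools, and pooling leaves no spread between animals. With 1 group of 2 libraries there is no test between conditions, and each level is given in both libraries with the mean ± SD over them (n = 2) where it matters. Intervals are exact 95% intervals and cover counting error only. Those of levels take UMIs as independent, so they are too narrow where single cells hold many.

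After filtering, 8834 cells of C-ON and 16818 cells of FMC_new remained, with a median of 6810.5 and 4676.0 unique molecular identifiers (UMIs, counts of single captured RNA molecules) per cell. Clusters were named from marker genes, and each name carries "-like" for that reason. The cells fell into 37 clusters, of which 4 took no name and the rest shared 20 names. The tumor-like class, 214 and 1381 cells in C-ON and FMC_new, was named by oligodendrocyte precursor markers. Pdgfra, the precursor's growth factor receptor, was found in 84.6% and 75.2% of its cells and Cspg4, the NG2 proteoglycan, in 67.8% and 57.0%. Precursors that are not part of a tumor carry the same markers and cannot be told apart from tumor cells by them. The libraries differ in make-up: oligodendrocyte-like cells were 65.0% of C-ON and 15.4% of FMC_new, and pituitary endocrine-like cells were 19 in C-ON and 1709 in FMC_new. Of the barcodes kept in the 2 libraries, 188 occur in both.

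All 4 genes have at most 4 exons per transcript in the GRCm38 annotation, the assembly of the mm10 reference used for counting. Fabp5 lies on the plus strand of chromosome 3 from 10012548 to 10016607 and Fabp4 on the minus strand of the same chromosome from 10204088 to 10208576. Fabp3 lies on the plus strand of chromosome 4 from 130308595 to 130315463, and its ends overlap Gm10570 and Zcchc17, both on the opposite strand. Fabp7 lies on the plus strand of chromosome 10 from 57784881 to 57788450. Whether counting used the strand is not given in the sources used here, so reads in the overlaps of Fabp3 are uncertain. Fabp3 and Fabp5 also have processed pseudogenes in the mouse genome whose reads can be shared with them.

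RefSeq promoter windows, 250 bases before to 50 after the transcript start, were at hand for 2 of the 4, Fabp7 and Fabp3, the members whose RNA was most uneven between cell classes. They are shown because they were the only windows at hand, with motif matches in capitals.
Fabp7 promoter, chr10:57784673-57784972, plus strand, GRCm38.p6: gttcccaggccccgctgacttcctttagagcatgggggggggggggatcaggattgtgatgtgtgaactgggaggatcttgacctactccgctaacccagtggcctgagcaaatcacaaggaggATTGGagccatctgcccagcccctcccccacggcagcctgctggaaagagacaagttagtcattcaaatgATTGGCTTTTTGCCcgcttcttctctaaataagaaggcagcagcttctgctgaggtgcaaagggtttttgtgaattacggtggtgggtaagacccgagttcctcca
Fabp3 promoter, chr4:130308488-130308787, plus strand, GRCm38.p6: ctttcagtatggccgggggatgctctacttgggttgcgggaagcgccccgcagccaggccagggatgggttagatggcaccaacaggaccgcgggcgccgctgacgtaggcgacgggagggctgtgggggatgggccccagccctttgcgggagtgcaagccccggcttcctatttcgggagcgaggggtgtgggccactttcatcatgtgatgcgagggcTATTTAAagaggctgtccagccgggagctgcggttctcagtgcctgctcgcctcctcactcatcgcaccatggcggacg

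Both strands were searched for 6 motifs, chosen after these sequences had been read. The Fabp7 window held 1 match to TTGGC followed after 5 bases by GCC, the element of nuclear factor I, starting 55 bases before the transcript start. That motif is present in 1.38% of the 32851 promoter windows. It also held 2 matches to CCAAT, both on the minus strand, the nearer of which overlaps the nuclear factor I match, and 37.4% of the windows hold CCAAT. The Fabp3 window held TATTTAA 29 bases before the start, which 4.51% of windows hold. GTGGGAA, the element of RBPJ, the POU octamer ATGCAAAT and the PPAR element, 2 copies of AGGTCA with 1 base between them, were in neither window, and 6.38%, 1.74% and 0.0396% of all windows hold them. A match describes letters and is not evidence that a factor binds.

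The question put to the data was in which cells of the tumor-bearing nerve each member is read, and how steep the differences between classes are. For 16 classes with at least 20 cells in each library, the level in a class was taken as CPM, the gene's UMIs per 1000000 UMIs of that class. Over these classes, 3 members had enough UMIs for a ratio of the highest class to the median class: Fabp7, Fabp5 and Fabp3, with 6167, 138653 and 497 UMIs in kept cells. Fabp4, with 32, did not. Fabp7 and Fabp3 were at least 10-fold above the median class in both libraries, which 17.7% of the 14981 genes with at least 200 UMIs were as well. For Fabp7 the ratio was 136 in C-ON and 117 in FMC_new, with tumor-like cells highest in each. For Fabp3 it was 37.6 and 257, with neuron-like cells highest in each. For Fabp5 it was 6.13 and 11.2, with oligodendrocyte-like cells highest in each. Where the median class was nearly empty, its level was set to that of 3 UMIs. This was so for Fabp3 in both libraries and for Fabp7 in C-ON. Those ratios therefore depend on the total UMIs of the classes, and the Fabp3 ratios of C-ON and FMC_new cannot be set against each other.

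**Figure D1:**
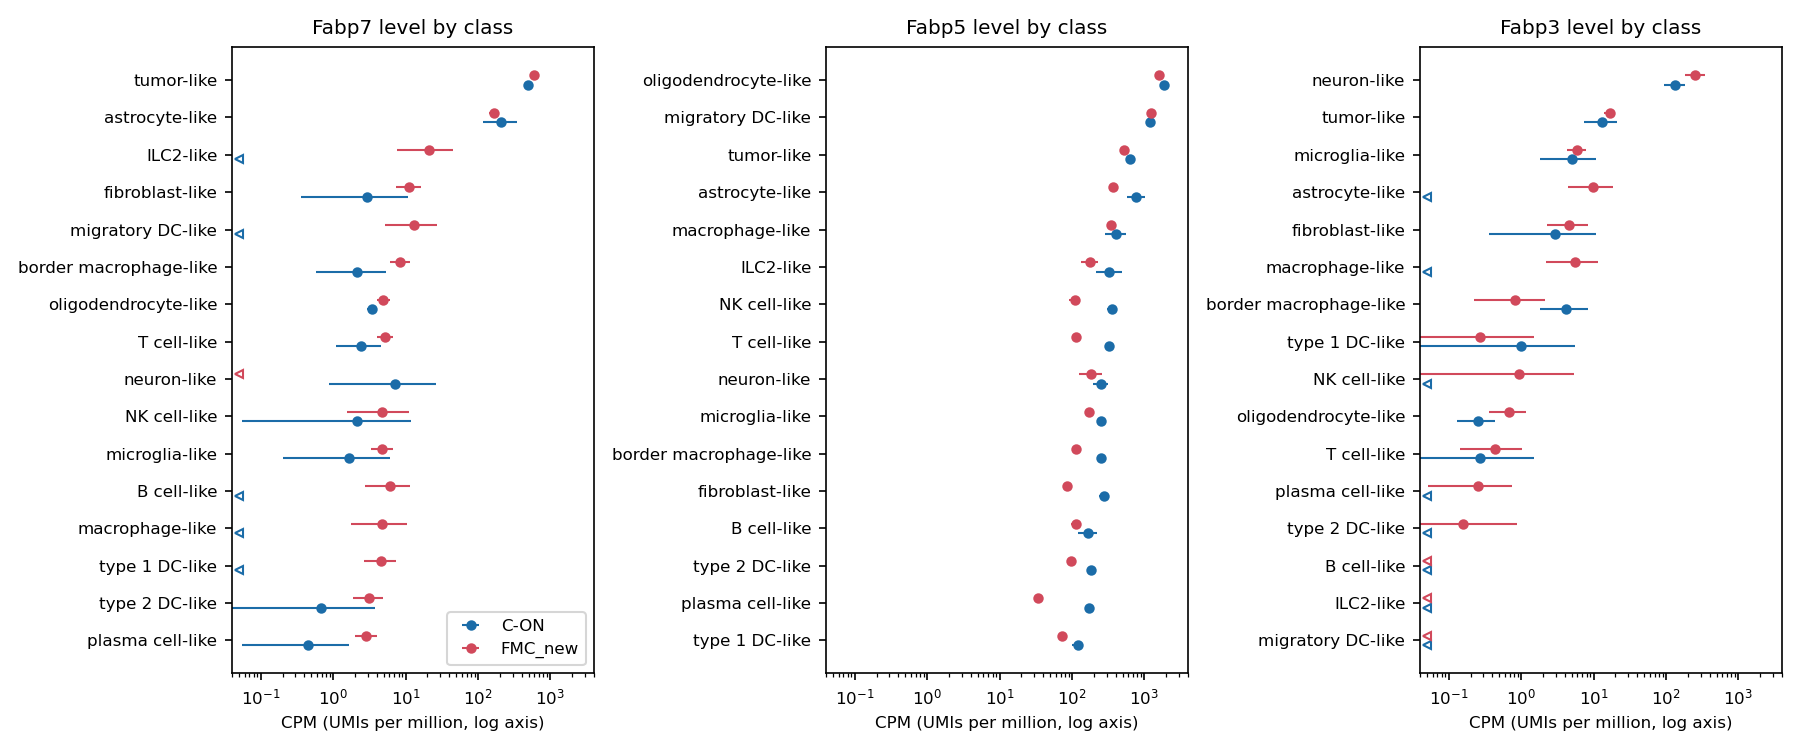
Level of Fabp7, Fabp5 and Fabp3 in 16 cell classes, in CPM on a log axis. Points are the libraries C-ON (blue) and FMC_new (red), bars are exact 95% Poisson intervals, and open triangles at the left edge mark classes with 0 UMIs. Fabp7 stands at 487 and 592 CPM in tumor-like cells and under 21 CPM in each library in all classes but these and the astrocyte-like cells, while Fabp5 is read in every class.

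Fabp7 was centered on the tumor-like cells. In tumor-like cells its level was 487 CPM in C-ON (605 UMIs, interval 449 to 527) and 592 CPM in FMC_new (4494 UMIs, 575 to 610), or 539.6 ± 74.6 (SD, n = 2). Astrocyte-like cells followed at 211 CPM in C-ON (15 UMIs in 20 cells, 118 to 348) and 167 CPM in FMC_new (155 UMIs in 244 cells, 142 to 196). The make-up of this class depends on the clustering: at the finer resolution of 1.2 it held 141 cells and stood at 269 CPM. The libraries of the tumor-like class both lay above those of the astrocyte-like class, and these above those of the class ranked next. The other 14 classes stood between 0 and 20.8 CPM and overlapped one another. Their order has no meaning beyond this spread: the highest of them, ILC2-like cells in FMC_new, rested on 6 UMIs, and the same class in C-ON had 0.

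The tumor-like class was 2.42% of the cells of C-ON and held 74.1% of its Fabp7 UMIs (70.9% to 77.0%). In FMC_new it was 8.21% of the cells and held 84.0% of them. Oligodendrocyte-like cells held a further 19.8% in C-ON, where they are the bulk of the cells, at a level of 3.42 CPM in C-ON and 4.94 CPM in FMC_new. T cells are not known to use Fabp7, and T cell-like cells stood at 2.41 and 5.22 CPM. The level in oligodendrocyte-like cells was above that of this class in C-ON and below it in FMC_new, with overlapping intervals in each. The T cell-like level of C-ON rests on 9 UMIs, and the part of free RNA in the oligodendrocyte-like level was not tested.

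Counting cells gave the same order. Before any correction for depth, 72.0% of tumor-like cells of C-ON (65.4% to 77.9%) and 69.8% of those of FMC_new (67.3% to 72.2%) had at least 1 Fabp7 UMI, against 0.933% and 1.60% of T cell-like cells. The median depths of the tumor-like cells were 5304 and 5312 UMIs and those of the T cell-like cells 3217 and 3128. After each cell was thinned to 1000 UMIs, which left out 102 shallower cells of C-ON and 510 of FMC_new, the shares were 34.3% and 37.3% in tumor-like cells. In astrocyte-like cells 4 of 16 cells of C-ON kept a UMI (7.27% to 52.4%) and 12.9% of those of FMC_new (8.75% to 18.1%). The shares were 0.508% and 0.592% in oligodendrocyte-like cells and 0.319% and 0.545% in T cell-like cells.

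**Figure D2:**
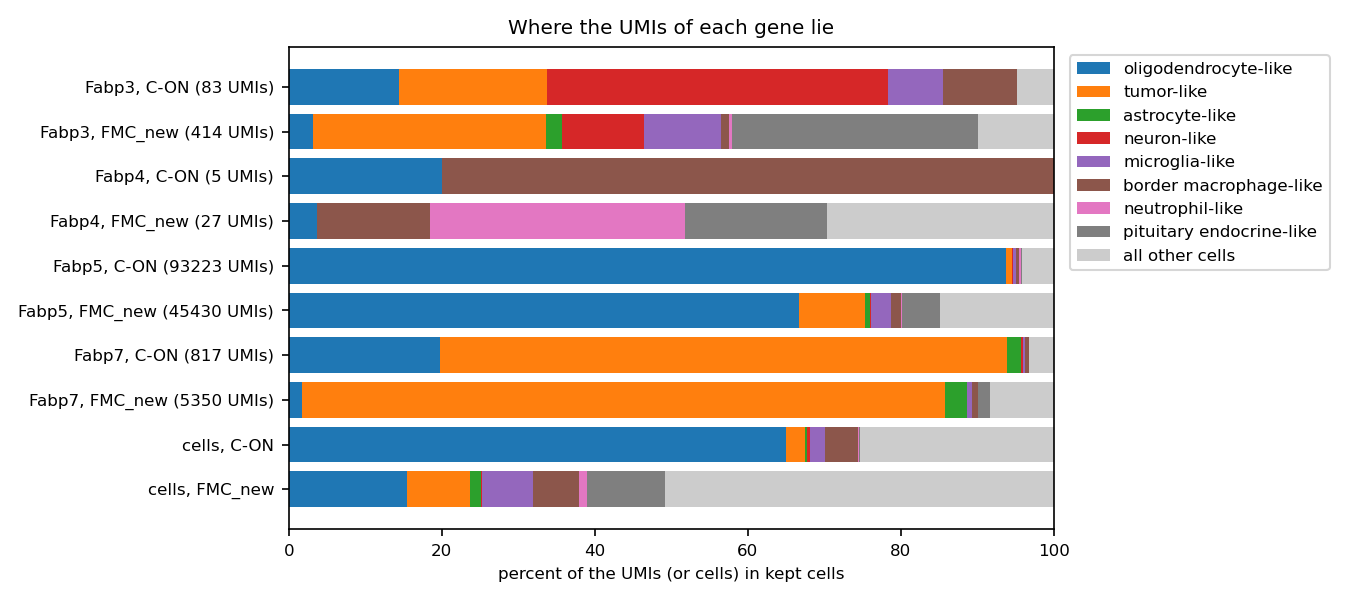
Percent of each gene's UMIs in kept cells that lie in each cell class, for both libraries, with the percent of cells per class in the last 2 bars and the total UMIs beside each gene. Tumor-like cells (orange) hold 74.1% and 84.0% of Fabp7, oligodendrocyte-like cells (blue) 93.7% and 66.7% of Fabp5, and Fabp4 has 5 and 27 UMIs in all.

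Free RNA, released by broken cells and captured with others, puts UMIs of abundant genes into cells that do not express them, so the astrocyte-like values were set beside the 8 tumor markers in the same cells. In tumor-like cells these markers summed to 10579.8 CPM (C-ON) and 9301 CPM (FMC_new), and in astrocyte-like cells to 971 and 831 CPM. Per tumor marker UMI, tumor-like cells had 0.0460 Fabp7 UMIs in C-ON and 0.0637 in FMC_new. Astrocyte-like cells had 0.217 and 0.201, so Fabp7 was higher there relative to the tumor markers than in the tumor-like cells themselves. T cell-like cells, on 9 and 59 Fabp7 UMIs, had 0.0783 and 0.122, and border macrophage-like cells 0.0667 and 0.206. The part of free RNA in the astrocyte-like level was not tested beyond these values.

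Within the tumor-like class Fabp7 was uneven. Cluster 7, led by C1ql1, Pdgfra and Neu4, had 499.7 CPM in C-ON and 663 CPM in FMC_new. Cluster 19, led by Gpr17, Neu4 and Vxn and with a median of 1937 UMIs per cell against 6161 in cluster 7, had 204 CPM in 7 cells of C-ON (102 to 364) and 263 CPM in 448 cells of FMC_new (236 to 292). The lower level in cluster 19 was thus seen in both libraries, but in C-ON it rests on 11 UMIs. The tumor markers were lower there too: in FMC_new the 8 markers summed to 3789 CPM in cluster 19 and to 10483 CPM in cluster 7. Per tumor marker UMI, Fabp7 was at 0.0693 in cluster 19 (0.0621 to 0.0773) and 0.0632 in cluster 7 (0.0613 to 0.0653), so relative to these markers it was not lower. Gpr17, a receptor of precursors that begin to differentiate, heads the leading genes of cluster 19, in which Fabp7 was lower. It is also among the leading genes of cluster 7, in which Fabp7 was higher, as is Neu4. The clusters therefore do not tie Gpr17 to a low Fabp7 level, and cells were next split by the gene itself.

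Tumor-like cells with a Gpr17 or Neu4 UMI at 1000 UMIs per cell had 531 CPM Fabp7 in C-ON (98 cells, 396 to 696), and those without had 393 CPM (112 cells, 285 to 527). In FMC_new the values were 626 CPM (508 cells, 559 to 699) and 496 CPM (796 cells, 448 to 548). Fabp7 was higher beside these genes in both libraries, and the intervals overlap in C-ON and stand apart in FMC_new. For Neu4 alone, a sialidase, the values were 514 and 426 CPM in C-ON and 631 and 512 CPM in FMC_new, and for Gpr17 alone 609.8 and 420.1 CPM in C-ON and 565 and 543 CPM in FMC_new. Cells in which 1 of these genes is read may also be better captured in other ways, which was not tested.

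A cluster led by cell cycle genes, cluster 24, holds dividing cells of several classes and took no name. In it, 2 cells of C-ON and 32 of FMC_new had UMIs of at least 3 of the 8 tumor markers, a split made after the cluster's values had been seen. These had 802 CPM Fabp7 in C-ON (10 UMIs, 385 to 1475) and 871 CPM in FMC_new (229 UMIs, 762 to 991). The other 42 and 258 cells of the cluster had 0 and 2.16 CPM. These cells were picked by tumor markers while the tumor-like class was not picked cell by cell, so no comparison between them is made. Within the tumor-like class, cells thinned to 1000 UMIs and split by Mki67 or Top2a, genes of dividing cells, had 0 Fabp7 UMIs in 3 cells of C-ON with either gene and 464 CPM in the 207 without. In FMC_new they had 250 CPM with either gene (7 UMIs in 28 cells, 101 to 515) and 553 CPM without (1276 cells, 513 to 596). In C-ON the interval of the 3 cells, 0 to 1230 CPM, covers the level of the cells without either gene. In FMC_new the intervals overlap slightly.

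**Figure D3:**
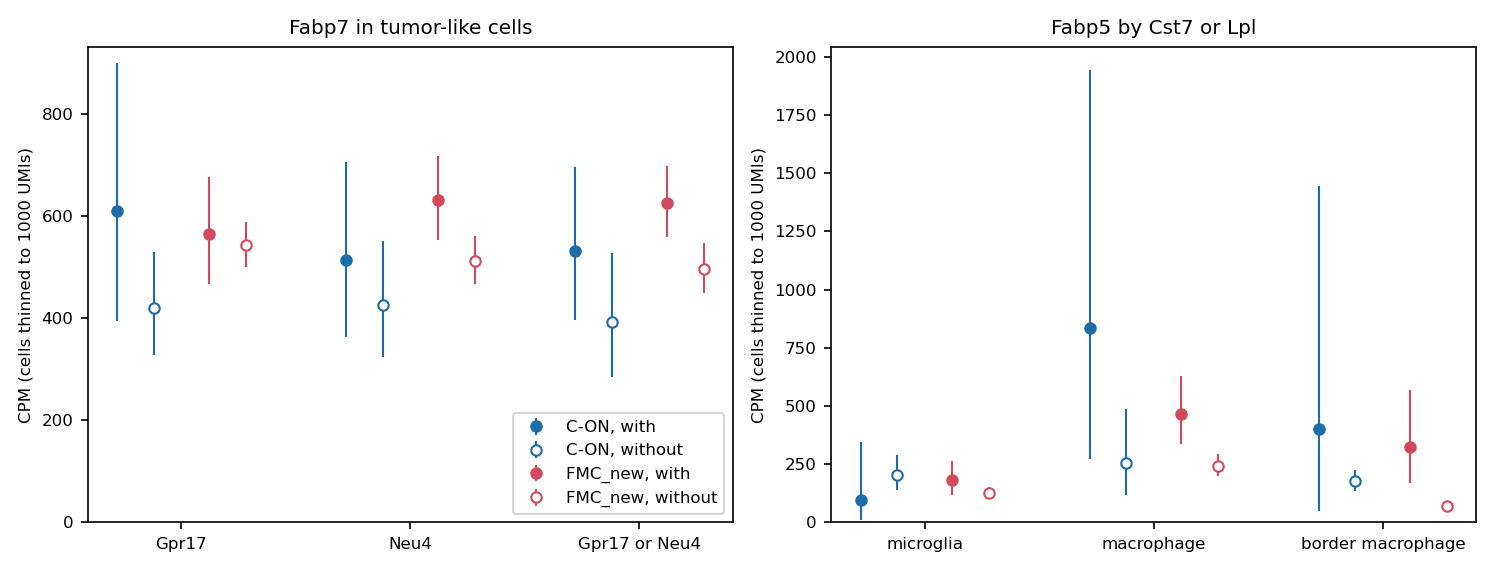
Left, Fabp7 level in tumor-like cells with (filled) and without (open) a UMI of Gpr17, Neu4 or either. Right, Fabp5 level in 3 macrophage-lineage classes with and without a UMI of Cst7 or Lpl. The axis is CPM in cells thinned to 1000 UMIs, colors are the libraries (C-ON blue, FMC_new red) and bars are exact 95% Poisson intervals. With either tumor gene, Fabp7 is 531 against 393 CPM in C-ON and 626 against 496 CPM in FMC_new.

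Fabp5 was read everywhere and, among the 16 classes, was highest in oligodendrocyte-like cells, the myelin-forming glia. Its level there was 1843 CPM in C-ON (87343 UMIs) and 1592 CPM in FMC_new (30287 UMIs), or 1717 ± 178 (SD, n = 2). Migratory dendritic cell-like cells, antigen-presenting cells on their way to lymph nodes, came next with 1212 CPM in C-ON (244 UMIs in 26 cells, 1064 to 1374) and 1243 CPM in FMC_new (665 UMIs in 79 cells, 1150 to 1341). Their median was 2 and 3 Fabp5 UMIs per cell, while single cells held up to 62 and 50, so these intervals are too narrow. Both libraries of the oligodendrocyte-like and of the migratory dendritic cell-like class stood above both of every lower class among the 16. Tumor-like cells had 628 and 515 CPM and astrocyte-like cells 774 and 367 CPM, and these classes overlapped. The lowest level was in plasma cell-like cells of FMC_new, at 33.6 CPM. Neutrophil-like cells, too few in C-ON to be ranked, had a mean of 21 Fabp5 UMIs in 7 cells there. Oligodendrocyte-like cells of C-ON had a mean of 15.2. In FMC_new the mean of the 161 neutrophil-like cells was 0.559.

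Most Fabp5 RNA belonged to oligodendrocyte-like cells in both libraries. They held 93.7% of the Fabp5 UMIs of C-ON and 66.7% of those of FMC_new. At least 1 UMI was found in 96.6% of these cells in C-ON and 87.9% in FMC_new, and in 72.2% and 62.7% after thinning to 1000 UMIs. In migratory dendritic cell-like cells the thinned shares were 34.6% (17.2% to 55.7%) and 60.3% (48.5% to 71.2%). In tumor-like cells they were 32.9% and 29.1%, and in T cell-like cells 17.5% and 10.1%.

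The 6 clusters that took the oligodendrocyte-like name differed several-fold. The lowest was cluster 11, led by Grm3, Ctnna3 and Spock1, with 595 CPM in C-ON and 497 CPM in FMC_new. Cluster 2, led by Slc9a3r2, Gm4841 and C4b and followed by the protease inhibitor Serpina3n, had 2891 CPM in C-ON and 1792 CPM in FMC_new. Cluster 1, led by the homeobox gene Nkx2-9, had 1911 and 2047 CPM, and cluster 0, with Ptgds and Opalin among its leading genes, 1679 and 1525 CPM. Cluster 30 had 2277 CPM in 10 cells of C-ON and 1108 CPM in 135 of FMC_new. Cluster 11 was the lowest of the 6 in both libraries, while the highest was cluster 2 in C-ON and cluster 1 in FMC_new.

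Cluster 12 was named by 8 oligodendrocyte markers, but 0 of them are among its 10 leading genes, and the pituitary hormone genes Prl and Gh lead it. Its Fabp5 level was 2453 CPM in C-ON and 882 CPM in FMC_new. The oligodendrocyte markers were lower with it, at 18866 CPM in C-ON and 4083 CPM in FMC_new, where Gh stood at 199868 and Prl at 132794 CPM in these cells, against 0 for both in C-ON. Fabp5 per oligodendrocyte marker UMI was higher in FMC_new, at 0.216 against 0.130. Without this cluster the oligodendrocyte-like class had 1825 CPM Fabp5 in C-ON and 1645 CPM in FMC_new, or 1735 ± 127 (SD, n = 2), and held 90.05% and 64.1% of the Fabp5 UMIs.

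**Figure D4:**
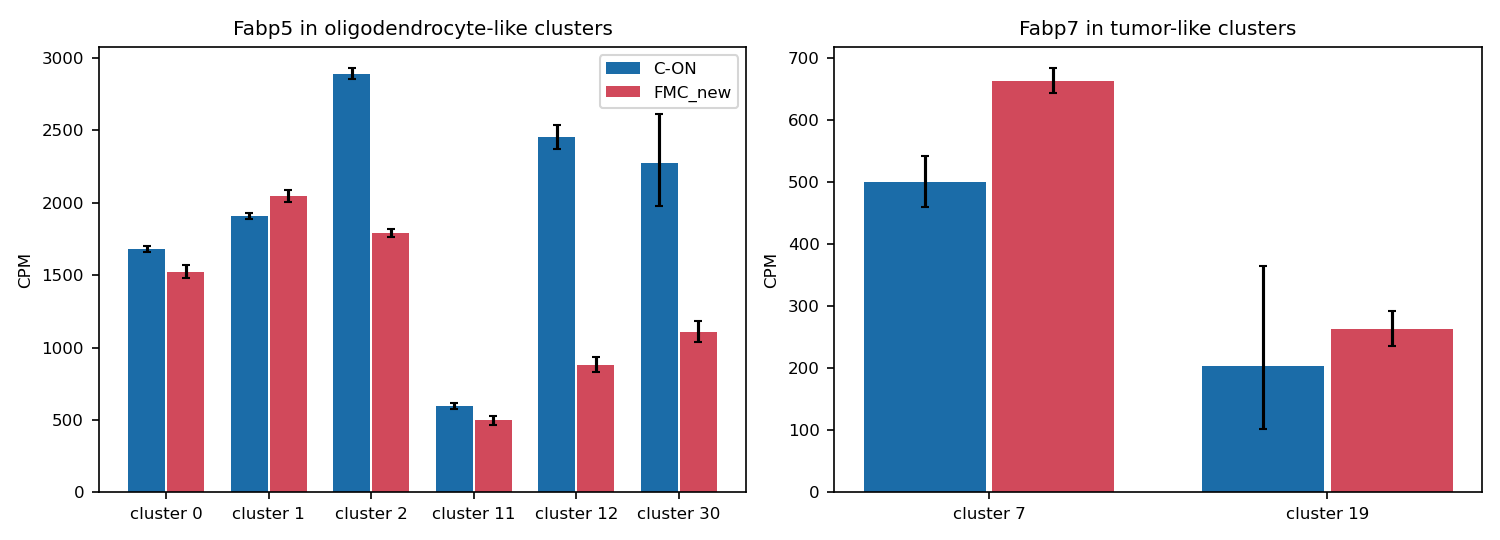
Fabp5 level in the 6 oligodendrocyte-like clusters (left) and Fabp7 level in the 2 tumor-like clusters (right), in CPM, for C-ON (blue) and FMC_new (red), with exact 95% Poisson intervals. Fabp5 is lowest in cluster 11 at 595 and 497 CPM, and Fabp7 is lower in cluster 19 than in cluster 7 in both libraries.

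Because Fabp5 is abundant in the most common cells of C-ON, its UMIs in other classes were set against the summed UMIs of 8 oligodendrocyte markers, among them Mog, Mag and Mobp, in the same cells. This ratio describes how Fabp5 and marker UMIs stand to each other and does not assign a source to them. Oligodendrocyte-like cells had 0.0912 Fabp5 UMIs per marker UMI in C-ON and 0.0859 in FMC_new, and their clusters of at least 20 cells ranged from 0.0334 to 0.137 and from 0.0276 to 0.216. In C-ON, 12 of the 15 other classes were not above the highest of these clusters beyond counting error, T cell-like (0.115), border macrophage-like (0.0811) and microglia-like cells (0.115) among them. The other 3 were migratory dendritic cell-like cells at 3.54 (2.70 to 4.69), neuron-like cells at 0.318 and tumor-like cells at 0.275 (0.254 to 0.298). The same 3 classes were above the highest oligodendrocyte-like cluster in FMC_new, at 2.25 (1.96 to 2.59), 0.970 and 0.429 (0.413 to 0.446). In FMC_new microglia-like (0.428), macrophage-like (0.357), ILC2-like (0.378) and pituitary endocrine-like cells (0.306) were above it too, 7 of 19 classes in all. The limit of 0.216 in FMC_new comes from cluster 12 alone. Without that cluster it was 0.117, and 12 of 19 classes lay above it, T cell-like (0.225), border macrophage-like (0.204), astrocyte-like (0.237), type 2 dendritic cell-like (0.143) and neutrophil-like cells (0.157) being the further ones. In C-ON the count of 3 of 15 was the same without it. The part of free RNA in the Fabp5 level of these classes was not tested beyond these values.

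**Figure D5:**
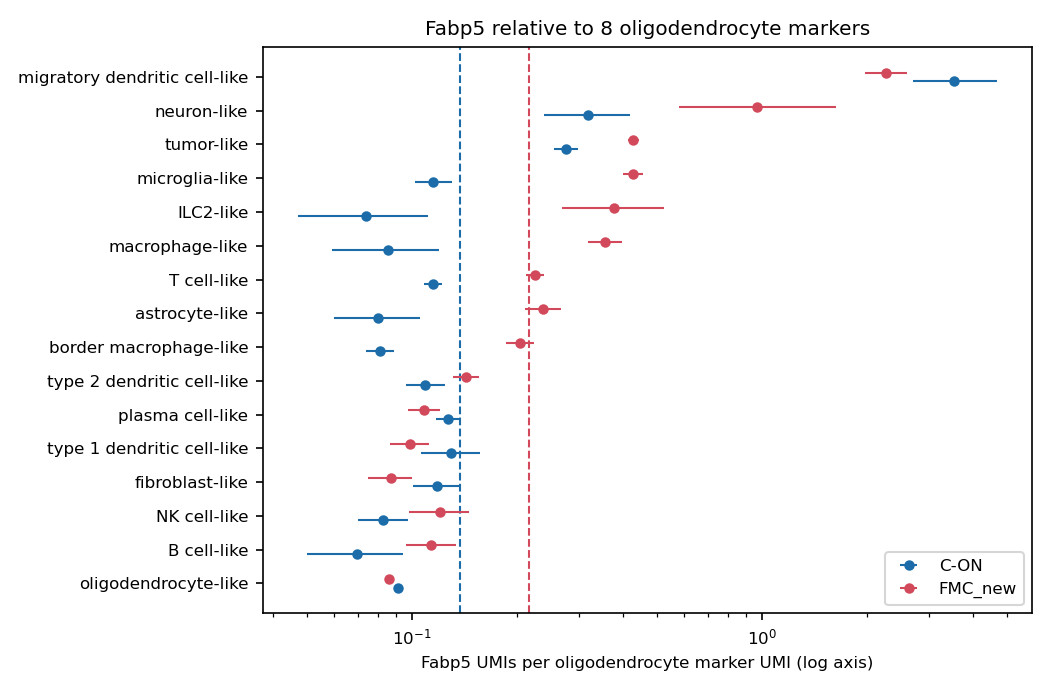
Fabp5 UMIs per UMI of 8 oligodendrocyte markers in 16 cell classes, on a log axis, for C-ON (blue) and FMC_new (red) with exact 95% binomial-based intervals. Dashed lines mark the highest oligodendrocyte-like cluster in each library, 0.137 and 0.216, the latter set by cluster 12 (0.117 without it). Migratory dendritic cell-like, neuron-like and tumor-like cells lie beyond the line in both libraries.

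Fabp5 was higher in C-ON than in FMC_new in 10 of 10 classes with at least 50 cells in each library, and at least 2-fold higher in 5 of them. Over all genes in these classes, 4.42% of the 93660 pairs of gene and class with at least 50 UMIs were at least 2-fold higher in C-ON and 4.52% at least 2-fold higher in FMC_new. The ratio of C-ON to FMC_new was 5.15 in plasma cell-like, 3.22 in NK cell-like, 3.17 in fibroblast-like, 2.94 in T cell-like and 2.20 in border macrophage-like cells. It was 1.16 in oligodendrocyte-like and 1.22 in tumor-like cells, the classes with the most Fabp5 among these 10. The oligodendrocyte markers were also higher in C-ON. In T cell-like cells they summed to 2863 CPM in C-ON and 499 CPM in FMC_new. In plasma cell-like cells they summed to 1363 and 310.4 CPM, and in oligodendrocyte-like cells to 20218 and 18529 CPM. Their change did not keep step with that of Fabp5 in every class. In microglia-like cells they summed to 2189 and 398 CPM, with a Fabp5 ratio of 1.48. In fibroblast-like cells they summed to 2314 and 991 CPM, with the Fabp5 ratio of 3.17. The part of free RNA in the library difference was not tested further.

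For Fabp7, 3 classes had enough UMIs for this comparison. The ratio of C-ON to FMC_new was 0.822 in tumor-like, 0.692 in oligodendrocyte-like and 0.462 in T cell-like cells, the last past 2-fold on 9 and 59 UMIs. FMC_new is also the library with more tumor-like cells. For Fabp3 only the tumor-like class qualified, with a ratio of 0.775.

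Among macrophage-lineage cells Fabp5 was read with the state markers Cst7, a cystatin gene, and Lpl, the gene of lipoprotein lipase, as splits. Microglia-like cells with either gene had 95.2 CPM in C-ON (21 cells, 11.5 to 344) and 180.0 CPM in FMC_new (150 cells, 119 to 262). Those without had 203 CPM (138 to 288) and 127 CPM (105 to 152). The direction differs between the libraries and the intervals overlap in each. Macrophage-like cells with either gene had 833 CPM in C-ON, on 5 UMIs in 6 cells, and 467 CPM in FMC_new (92 cells, 338 to 630), against 257 CPM and 244 CPM (201 to 292) without. Border macrophage-like cells with either gene had 400.0 CPM in C-ON on 2 UMIs and 324 CPM in FMC_new (37 cells, 168 to 567), against 176 and 71.1 CPM without. The levels were higher with these genes in both classes and libraries, but the shares of cells with a Fabp5 UMI in FMC_new overlap. They were 20.7% (12.9% to 30.4%) with and 15.7% (12.5% to 19.3%) without in macrophage-like cells, and 10.8% (3.03% to 25.4%) and 6.19% (4.75% to 7.89%) in border macrophage-like cells. Single cells of FMC_new held up to 107 and 47 Fabp5 UMIs in these classes before thinning, so the intervals of the levels, which take UMIs as independent, are too narrow.

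Fabp3 was a gene of few cells. Its highest level was in neuron-like cells, 134 CPM in C-ON (37 UMIs in 35 cells, 94.5 to 185) and 254 CPM in FMC_new (44 UMIs in 20 cells, 185 to 342), or 194 ± 85.0 (SD, n = 2). Of all 14981 genes, 20.4% were highest in neuron-like cells, more than in any other class. These cells were named by 3 markers and read Gad1 in 85.7% and 95.0% and Stmn2 in all of them, while Nefl, Nefm and Slc17a6 of the same list were at 0. Avp, Nms and Prokr2 lead the cluster, neuropeptide and receptor genes of hypothalamic neurons, and optic nerves contain axons but few neuron cell bodies. Of these cells, 48.6% had a Fabp3 UMI in C-ON (31.4% to 66.0%) and 60.0% in FMC_new (36.1% to 80.9%), and after thinning 14.3% did in C-ON and 6 of 20 in FMC_new.

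Tumor-like cells were next, with 12.9 CPM Fabp3 in C-ON (16 UMIs, 7.36 to 20.9) and 16.6 CPM in FMC_new (126 UMIs, 13.8 to 19.8). The neuron-like libraries both stood above the tumor-like ones, and these above all lower classes. Astrocyte-like and macrophage-like cells had 0 UMIs in C-ON, but in only 20 and 44 cells. In FMC_new the astrocyte-like level, 9.71 CPM, rests on 9 UMIs. Whether these classes lie below tumor-like cells is therefore not resolved. Microglia-like cells had 5.04 and 5.90 CPM, and overlapped the classes after them. T cell-like cells had 0.268 and 0.442 CPM and oligodendrocyte-like cells 0.253 and 0.683 CPM. In FMC_new, pituitary endocrine-like cells had 10.6 CPM (133 UMIs in 1709 cells, 8.84 to 12.5), which was 32.1% of all Fabp3 UMIs of that library. Within them the 4 clusters ranged from 1.27 CPM in cluster 22, led by genes of the growth hormone lineage such as Ghrhr and Pou1f1, to 16.3 CPM in cluster 15, led by Cidea and Tbx19. Pituitary hormone RNA also spread through FMC_new: Gh stood at 101507 CPM in the endocrine cells and at 3746 CPM in tumor-like cells, while tumor-like cells of C-ON had 0 UMIs of it.

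Fabp4 was nearly absent. It had 5 UMIs in 5 of 8834 cells of C-ON, a share of 0.0566% (0.0184% to 0.132%), and 27 UMIs in 19 of 16818 cells of FMC_new, or 0.113% (0.0680% to 0.176%). Border macrophage-like cells held 4 UMIs in each library and stood at 2.11 and 0.830 CPM. In FMC_new 9 UMIs came from 3 neutrophil-like cells, 5 of them from 1 cell, and 5 UMIs from 5 pituitary endocrine-like cells. Of 4150 T cell-like cells 0 had a UMI, which allows a share of cells with a UMI of up to 0.0723%, and of 1595 tumor-like cells 0 had one, which allows up to 0.188%. These limits, from 3 counts, concern cells with a UMI and not cells that express the gene. Of the cells in which Fabp4 is best known, macrophages were sampled, with 1412 border macrophage-like and 642 macrophage-like cells. Endothelial cells and adipocytes were hardly sampled. No cluster was endothelial-like, 12 cells in all had UMIs of at least 3 of 8 endothelial markers, and these held 0 Fabp4 UMIs. Cells with at least 3 of 5 adipocyte markers numbered 0. A split of endothelium into barrier and fenestrated cells could therefore not be made.

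The members were also asked whether they share cells. In tumor-like cells thinned to 1000 UMIs, Fabp5 was found in 37.5% of cells with a Fabp7 UMI in C-ON (26.4% to 49.7%) and in 30.4% of those without (22.9% to 38.8%). In FMC_new the shares were 32.6% (28.5% to 37.0%) and 27.1% (24.0% to 30.2%). The share was higher with Fabp7 in both libraries, and the intervals overlap in each. In astrocyte-like cells of FMC_new Fabp5 was found in 16 of 28 cells with Fabp7, 57.1% (37.2% to 75.5%), and in 24.3% of 189 without (18.4% to 31.1%). In C-ON it was found in 0 of 4 such cells and in 6 of 12 without. Fabp3 was found in too few tumor-like cells for this comparison, 2 in C-ON and 16 in FMC_new.

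Across 35 clusters of at least 50 cells, with both libraries pooled, the members did not follow one another. The Pearson correlation of log2(CPM + 1) was 0.39 between Fabp3 and Fabp7, 0.18 between Fabp5 and Fabp7 and -0.04 between Fabp3 and Fabp5. These are descriptions over clusters that share libraries and depth. Among 14981 genes, the 5 most like Fabp7 were Pou3f2 (r = 0.91), Gm17750 (0.90), Kcnj16 (0.89), Gpr37l1 (0.89) and Irx1 (0.88). Pou3f2 is a POU-domain transcription factor of neural progenitors and glia. In each library alone, over 27 clusters of C-ON and 34 of FMC_new, the value for Pou3f2 was 0.88. The 5 most like Fabp5 were Gm9895 (0.88), the deacetylase gene Sirt2 (0.88), the mitochondrial pyruvate carrier gene Mpc1 (0.87), Rnf5 (0.87) and Csrp1 (0.86). The 5 most like Fabp3 were the neuronal RNA-binding gene Celf5 (0.89), the sodium channel subunit gene Scn3b (0.89), the calcium channel subunit gene Cacna2d3 (0.87), Sult4a1 (0.87) and Gm1673 (0.87). In C-ON alone the values were lower for several, 0.61 for Gm17750, 0.63 for Gm9895, 0.67 for Gm1673 and 0.68 for Cacna2d3.

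The rest of the family was close to silent. Of the other FABP genes, Fabp1, Fabp6, Fabp12 and Pmp2, the myelin protein P2 of peripheral nerve, had 9, 3, 54 and 52 UMIs in kept cells, and Fabp2 and Fabp9 had 0. Of the related retinoid-binding genes described here, Crabp2 was highest in fibroblast-like cells, at 194 CPM in C-ON and 206 CPM in FMC_new. Rbp7 and Crabp1 had 28 and 2 UMIs.

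Genes of fatty acid handling were counted by the class in which they were highest, among those with at least 200 UMIs. Of 9 genes of fatty acid synthesis and desaturation, 6 were highest in the class where Fabp5 was, the oligodendrocyte-like cells: Fasn, Acaca, Scd2, Elovl1, Elovl5 and Elovl6. Of all 14981 genes, 10.7% were highest there. Of the uptake and release genes 2 of 10 were, the transporter gene Slc27a4 and Abhd5, and 1 of 10, Mgll, was highest in tumor-like cells, where 8.88% of all genes were. Of 7 activation and binding genes, Acsl1 was highest in oligodendrocyte-like cells, Dbi, which binds acyl-CoA, in tumor-like cells, and Acsl3, Acsl6 and Acsbg1 in astrocyte-like cells, as 12.4% of all genes were. Of 7 oxidation genes, 1 was highest in oligodendrocyte-like cells, 0 in tumor-like cells and 2, Cpt1a and Acadvl, in astrocyte-like cells.

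Among lipid-sensing nuclear receptors, Pparg was highest in ILC2-like, Rxra in astrocyte-like and Ppard in microglia-like cells, and 0 of these 3 were highest in a class where a member was highest. The place of Pparg rests on FMC_new, with 166 CPM in ILC2-like cells there and 0 in C-ON. Of 9 radial glia genes, the cell type for which Fabp7 is a marker, Sox2 and Ptprz1 were highest in tumor-like cells and 5 in astrocyte-like cells, Slc1a3, Nes, Hes5, Gli3 and Tnc. Ptprz1 is also among the markers that named the tumor-like class, so its place was set by the naming. For Nes and Tnc the order turned in 1 library: in C-ON, Nes was 0 CPM in the astrocyte-like and 10.5 CPM in the tumor-like class, and Tnc 4.32 and 6.85 CPM in FMC_new. Vim was highest in type 2 dendritic cell-like and Hopx in T cell-like cells. Of 9 lipid-handling macrophage genes, Trem2 and Lpl were highest in microglia-like, Apoe in border macrophage-like and Spp1 in macrophage-like cells. Gpnmb and Cd9 were highest in tumor-like cells, and Cd63, Lgals3 and Plin2 in migratory, type 2 and type 1 dendritic cell-like cells. Of the fenestrated endothelium genes 2 of 6 and of the barrier endothelium genes 4 of 5 passed the minimum of UMIs, and 1 of each, Plvap and Mfsd2a, was highest in tumor-like cells. With 1 group of samples, none of these counts was tested.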

How the data were processed

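Single-cell RNA sequencing counts of 2 optic nerve libraries were analysed. The authors made them with Cell Ranger on the mm10 mouse reference, and deposited raw UMI counts per gene and cell barcode, without normalization. The file headers and the submitters' notes name version 7.2.0, and Seurat 5.2.1 is named for their own analysis. The libraries held 85101211 and 129113325 UMIs. Whole counts were used as deposited, and the mm10 build was matched to GRCm38 annotation by gene identifier.

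Cells with 500 to 5000 genes, 500 to 20000 UMIs and at most 5% mitochondrial UMIs were kept. Seurat 5.3.0 (R 4.3.3) was used for log normalization, 2000 variable features without the 4 members, Neu4 and Gpr17, CCA integration and clustering on 30 components at resolution 0.8. Clusters were named from lists of 33 classes, a marker counting when found in at least 20% of cells at no less than 2 times the mean of clusters, with at least 3 markers. A class with at least 2 markers among the 10 leading genes, and more than the best class, took the cluster, a rule added after the leading genes had been seen. Doublets were not removed. Scrublet (scanpy 1.11.5) marked 1 cell of C-ON, which shows that it did not work there, and 4.97% of FMC_new.

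Levels are CPM per class with exact Poisson intervals, and shares have exact Clopper-Pearson intervals. Python 3.11.15, numpy 2.4.6, scipy 1.17.1 and pandas 2.3.3 were used, and the steps over all genes were tested on simulated data. The named genes are the 4 members, the 5 most correlated genes of each with at least 200 UMIs, and the listed genes of the family and of lipid handling. Members and lists were chosen with earlier results of these data known. A gene of these lists is not reported here. Proteins of the members were not analysed here. Promoters of Fabp4 and Fabp5 were not used here. Alternatives were SCTransform, other resolutions, depth minimums, doublets, pooling, thinning and leaving out a library.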

Additional observations from a re-analysis of the deposited data

Results flagged for a closer look

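Members were also read in barcodes that the cell filters removed, 2011 of C-ON and 4523 of FMC_new, which enter no comparison above. In C-ON these held 29734 Fabp5 UMIs, 148 Fabp7 UMIs, 47 Fabp3 UMIs and 5 Fabp4 UMIs. In FMC_new they held 9837 Fabp5 UMIs, 947 Fabp7 UMIs and 135 Fabp3 UMIs. Each of these counts is above the 3 UMIs that a count of 0 allows, and no control library was at hand for comparison. In C-ON the removed barcodes stood at 1537 CPM for Fabp5, against 1418 CPM in the kept cells.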

How the results depend on the processing

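Fabp7 in tumor-like cells ranged from 487 to 592 CPM and Fabp5 in oligodendrocyte-like cells from 1592 to 1843 CPM over all alternatives run. The ends of these ranges are the single libraries. With both libraries kept, the ranges were 502 to 579 CPM and 1649.5 to 1771 CPM. Leaving out a library cannot move a mean of 2 libraries past their SD, so those settings could not fail. Apart from them, most levels moved by no more than the SD of the 2 libraries. Exceptions were Fabp7 in astrocyte-like cells, 269 CPM at resolution 1.2 and 244 CPM at resolution 0.4, Fabp5 in migratory dendritic cell-like cells, 1270.0 CPM under SCTransform and 1173 CPM after thinning to 1000 UMIs, and, also after thinning, Fabp3 in tumor-like cells, 10.9 CPM, and Fabp4 in border macrophage-like cells, 0 CPM. The astrocyte-like class held 264 cells at resolution 0.8, 141 at 1.2 and 171 at 0.4. Scn7a led it at 0.8, and led a separate fibroblast-like cluster of 158 cells at 1.2. The cause of these moves was not tested. With a 5-fold limit, 4858 genes and 3 members, Fabp5 included, passed in place of 2647 and 2.

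Leaving out either library gave Fabp3 levels of 134 to 254 CPM in neuron-like cells, the widest range relative to the mean apart from the 0.830 to 2.11 CPM of Fabp4 in border macrophage-like cells. Shares of cells followed the depth used: Fabp7 in tumor-like cells was 35.8% at 1000 UMIs, 20.6% at 500 and 70.9% unthinned, and Fabp5 in oligodendrocyte-like cells 67.4%, 48.7% and 92.2%. SCTransform gave no astrocyte-like or neuron-like cluster and resolution 0.4 no migratory dendritic cell-like cluster, so these gave no value there. Astrocyte-like cells with at least 1000 UMIs, or without the highest doublet scores, and neuron-like cells without those scores were under 20 in a library and gave no value. Leaving out the cells with the highest doublet scores, an alternative chosen after seeing the data, left the other levels within the SD. Leaving out cluster 12, also chosen after seeing the data, gave 1735 CPM for Fabp5 in oligodendrocyte-like cells, within the SD. No paired analysis was possible because both libraries belong to 1 group. The few UMIs of Fabp3 and Fabp4 and the 20 astrocyte-like cells of C-ON limit what their values can show.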
